A study of Drosophila melanogaster with 10 samples.

Results

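The proteasome is the large protease that degrades proteins tagged with ubiquitin chains. Its core particle, called 20S, is a barrel of stacked rings, in which the alpha subunits form the gates and the beta subunits line the chamber and carry the proteolytic sites. The regulatory particle, called 19S, caps the barrel: its Rpt ATPases unfold substrates and thread them into the core, and its non-ATPase Rpn subunits bind ubiquitin chains, remove them and hold the particle together. In neurons the proteasome is known for turning over synaptic proteins and for its part in memory formation, and the Kenyon cells (KCs) studied here make up the mushroom body, the center of olfactory memory in the fly brain.

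The genes described here are the rows of the deposited expression table whose names begin with Prosalpha, Prosbeta, Rpn or Rpt (with a number after Rpn and Rpt). The rule found 35 of the 9655 rows: 6 alpha subunits (Prosalpha2 to Prosalpha7), 7 beta subunits (Prosbeta1 to Prosbeta7), 5 ATPases (Rpt2 to Rpt6), 12 Rpn subunits (Rpn1 to Rpn3 and Rpn5 to Rpn13) and 5 paralogs with a letter after the number (Prosbeta2R1, Rpt3R, Prosalpha4T2, Prosbeta5R2 and Prosalpha6T). The first 4 classes hold 30 genes and are called the canonical subunits below. A further 13 genes so named in the annotation had no row in that table and were not chosen by the rule.

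KCs were sorted by their green fluorescence from pooled central brains of female flies taken on day 0, when they eclosed. All flies carried Mef2(P247)-gal4, a driver active in KCs and weaker in the α′/β′ subtype, with UAS-nls.GFP, and were homozygous for either dSERT16, a deletion at the 5′ end of the serotonin transporter gene SerT, or dSERT4, the control allele, which itself carries a smaller deletion. Each genotype had 5 samples, 1 from each of 5 collection dates, and replicate numbers follow these dates. The study left out the pair with replicate number 1 for technical variability, so that the comparison rests on 4 samples of each genotype. In pooled brains and sorted pools, fewer cells of a type and less RNA per cell cannot be told apart.

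Between 18446396 and 69997102 reads fell on genes per sample. SerT itself was lower in every one of the 4 dSERT16 samples than in any dSERT4 sample of the comparison, with a log2 fold change of -1.92 ± 0.70 (SE) and an adjusted p of 0.519 with edgeR. Its reads were few, 504 over the 10 samples. In the comparison it stood at 0.92 to 3.40 CPM in dSERT4 and 0.23 to 0.76 CPM in dSERT16. The 11 KC markers were expressed in every sample, with summed levels of 14771 to 17423 CPM (normalized counts per 1000000 reads on genes) in the 4 dSERT4 samples and 15837 to 16852 in the 4 dSERT16 samples, and none of the 11 was called. The 8 glial markers summed to 953 to 1602 CPM in dSERT4 and 1000 to 1586 in dSERT16, with alrm and moody at 0 reads throughout. In the left-out pair the glial sum was lower, 478 CPM in dSERT4 against 231 CPM in dSERT16. The 10 stress response genes summed to 5761 to 10918 CPM in dSERT4 and 4886 to 8050 CPM in dSERT16, with Hsp22 at 0 throughout. Of the 9 stress genes tested 7 had lower point values in dSERT16. None was called by edgeR, with 2 at an unadjusted p under 0.05, Hsp70Ba (a log2 fold change of -1.35) and stv (0.50), which DESeq2 called. With the collection date as a block, edgeR called both (adjusted p = 0.0495 for Hsp70Ba and 0.0081 for stv). The other lists were low in the samples of the comparison. The 6 genes of other transmitter neurons reached at most 104 CPM (dSERT16 replicate 4), of which ple gave 77.4 CPM. Of the 5 tested, 2 had an unadjusted p under 0.05 in edgeR, SerT and Gad1 (a log2 fold change of 0.70), and none was called. The 6 photoreceptor and eye genes reached at most 196 CPM (dSERT16 replicate 3), of which norpA gave 192 CPM. The 6 fat body and blood cell genes reached at most 5.80 CPM. The part of these genes in the subunit values was not tested.

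Transcripts of the canonical subunits were abundant and similar to each other in level. Per gene length, in the TPM (transcripts per 1000000, corrected for length) that the authors computed, the canonical subunits had a median of 245 TPM over the 8 samples, against 23.2 TPM for all 9655 rows. Leaving out Rpt6, whose counts are described separately, the 29 others had means between 81.4 TPM (Rpn8) and 453 TPM (Prosbeta5), a ratio of 5.56, and the lowest of them still stood at the 73.2nd percentile of all rows.

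**Figure D1:**
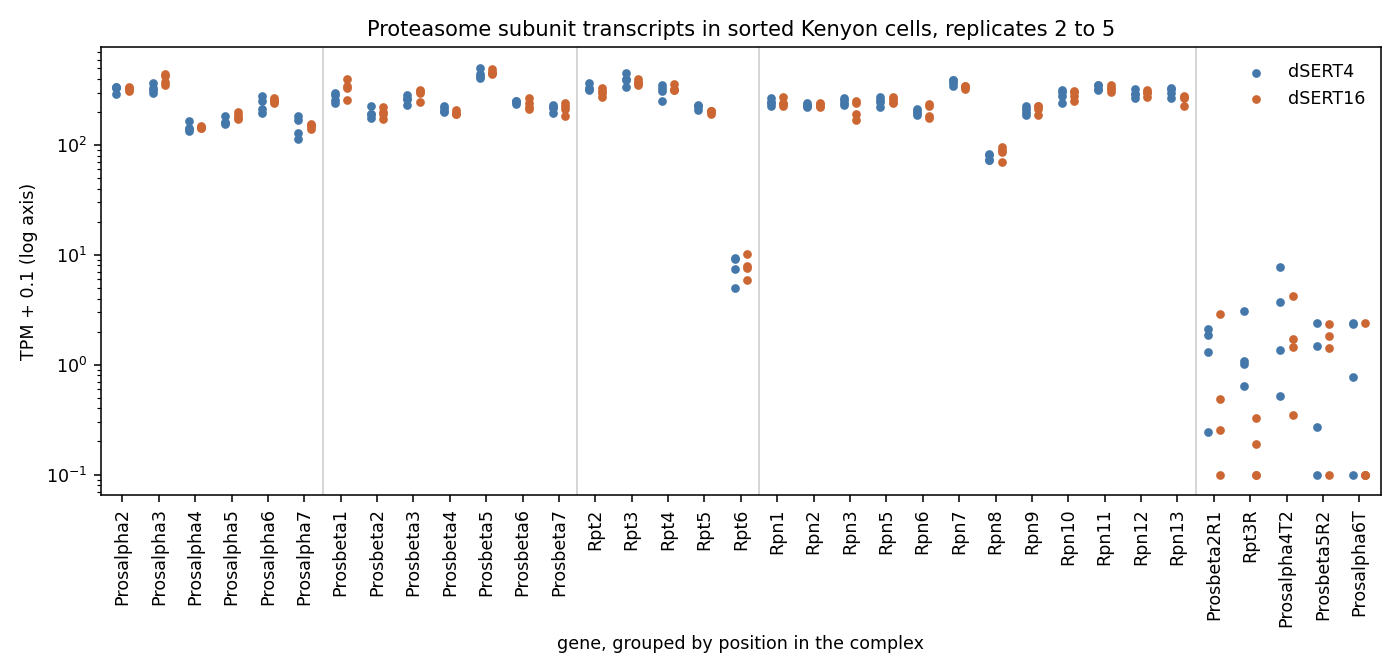
Deposited TPM (log axis, with 0.1 added) of each of the 35 genes in the 4 dSERT4 and 4 dSERT16 samples, 1 point per sample, with lines between the classes. Of the canonical subunits, 29 have means over the 8 samples of 81.4 to 453 TPM, Rpt6 has a mean of 7.70 TPM, and the 5 paralogs have means of at most 2.54 TPM.

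In the alpha ring Prosalpha3 had the highest mean level. Its TPM values were 329, 367, 319 and 296 in dSERT4 replicates 2 to 5 and 375, 353, 441 and 424 in dSERT16. Prosalpha4 had the lowest, at 135, 166, 139 and 142 TPM in dSERT4 and 149, 142, 146 and 144 TPM in dSERT16. The lowest value of Prosalpha3 exceeded the highest of Prosalpha4 in all 8 samples, while Prosalpha7 (a mean of 149 TPM) and Prosalpha4 (145 TPM) did not differ beyond their spread.

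In the beta ring Prosbeta5, the subunit with the chymotrypsin-like site, was highest. It had 505, 426, 404 and 439 TPM in dSERT4 and 444, 458, 448 and 495 TPM in dSERT16, above every other canonical subunit by its mean. Prosbeta2, which carries the trypsin-like site, was lowest in the ring by TPM. It had 175, 227, 190 and 191 TPM in dSERT4 and 201, 174, 220 and 193 TPM in dSERT16. Prosbeta1, with the caspase-like site, lay between them at a mean of 302 TPM. The samples of Prosbeta5 did not overlap with those of Prosbeta2, whereas those of Prosbeta2 overlapped with the next gene up, Prosbeta4, which had a mean of 204 TPM.

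Among the ATPases Rpt3 was highest, at 338, 448, 389 and 402 TPM in dSERT4 and 373, 355, 398 and 364 TPM in dSERT16. Rpt4 (320 TPM), Rpt2 (319 TPM) and Rpt5 (213 TPM) followed by their means. Within the Rpn subunits Rpn7, a scaffold subunit of the lid that covers the ATPase ring, was highest by TPM. Its values were 392, 343, 367 and 391 TPM in dSERT4 and 341, 339, 344 and 322 TPM in dSERT16. Rpn11, the deubiquitinase that strips the ubiquitin chain from substrates, followed at a mean of 332 TPM, and the values of the 2 genes overlapped.

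Rpn8, the partner that Rpn11 pairs with in the lid, was the lowest Rpn gene in TPM, at 72.4, 81.7, 83.2 and 72.4 in dSERT4 and 89.1, 69.2, 86.0 and 96.8 in dSERT16. This place depended on the gene length used. CPM values were also divided by the length of the merged exons in the annotation (1532 bases for Rpn8). By this measure Rpn8 stood at rank 23 of the 30 canonical subunits instead of rank 29. Other places changed too: Prosbeta4 (57.1 CPM per kilobase) and Prosbeta7 (57.7) stood below Prosbeta2 (62.1), and Rpn11 (91.1) stood above Rpn7 (84.8). The TPM was 1.42 times the CPM per kilobase for Rpn8 and 2.96 to 4.18 times for the other canonical subunits, and by CPM per kilobase the 29 subunits other than Rpt6 spanned a ratio of 2.93.

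Rpt6, an ATPase, stood apart with 39 to 147 reads per sample and a mean of 7.70 TPM. The gene (FBgn0020369) lies on chromosome X of BDGP6 from 21316052 to 21317663 on the forward strand and overlaps CG1801 (FBgn0031171), which lies from 21307586 to 21317522 on the reverse strand. Without regard to strand, a read in such an overlap belongs to neither gene. When the 2 strand-specific count columns were added up, Rpt6 had 2744 to 10827 reads per sample and 59.4 times its unstranded total over the 10 samples. CG1801 had 4 to 75 reads per sample without strand and 2681 to 10762 in the sum. The summed reads of Rpt6 were 6300, 4663, 2744 and 3053 in dSERT4 replicates 2 to 5 and 4165, 8255, 2871 and 3399 in dSERT16, and those of CG1801 were 6171, 4569, 2681 and 3017 in dSERT4 and 4070, 8131, 2841 and 3336 in dSERT16. The sums of the 2 genes were nearly equal in every sample, so that the same reads appear to be counted for both, and the genes cannot be told apart. If all these reads were from Rpt6, it would stand at rank 3 of the 30 canonical subunits at 98.7 CPM per kilobase, near Rpt3 at 92.1 and Rpt4 at 91.2 on the same scale. The annotation used here has only 12.96% of the Rpt6 exon bases in common with other genes.

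**Figure D2:**
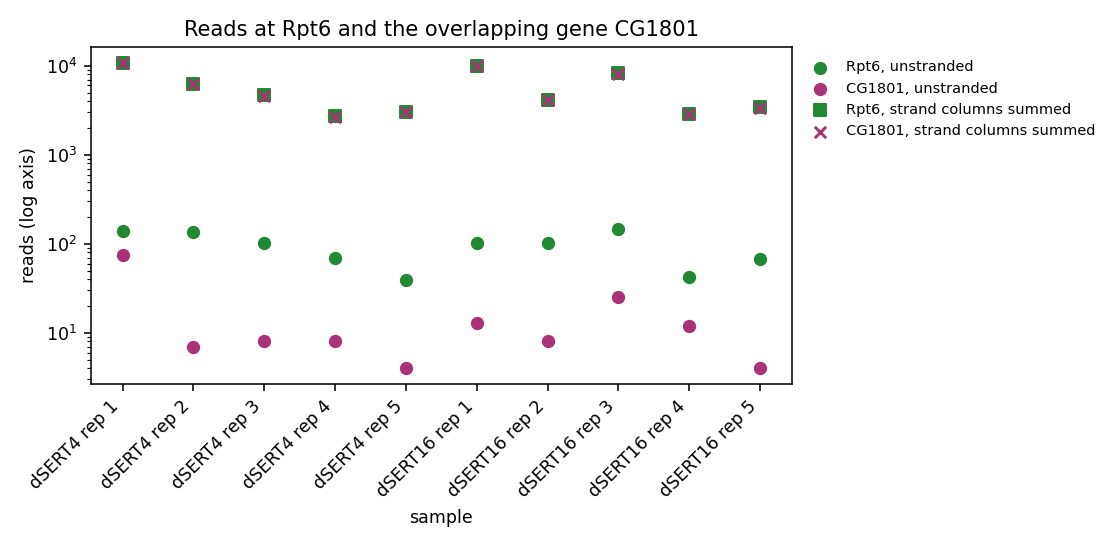
Reads (log axis) at Rpt6 and at CG1801 in each of the 10 samples, counted without regard to strand (circles) and as the sum of the strand-specific columns (squares for Rpt6, crosses for CG1801). Without strand Rpt6 had 39 to 147 reads, and in the sum both genes had nearly the same number of reads in each sample, 2744 to 10827 for Rpt6 and 2681 to 10762 for CG1801.

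For the other canonical subunits the strand-specific sum changed the total by at most 1.203 times (Rpn8), followed by Rpt2 at 1.102 times. A pair of canonical subunits had no row at all. Prosalpha1 (2R, 7827303 to 7828678) and the ATPase Rpt1 (2R, 7652440 to 7653954) were listed at 0 reads in all 10 samples and in every count column. With this pair included, 6 of the 41 genes from Rpt1 to Prosalpha1R, the paralog next to Prosalpha1, had 0 unstranded reads in all samples. Their levels in KCs were not analysed here.

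The paralogs, which in the fly are known mainly from the male germ line, were barely detected in these female KCs, at means of 0.713 (Rpt3R) to 2.54 TPM (Prosalpha4T2). Prosalpha4T2 had the most reads of them. It was found at 2.73, 0.436, 0.148 and 1.31 CPM in dSERT4 and 0.497, 1.45, 0.597 and 0.0921 CPM in dSERT16. Prosbeta5R2, the only other paralog that passed the filter on low counts, had values of 0.0625, 0.805, 0.492 and 0 CPM in dSERT4 and 0.842, 0.476, 0 and 0.645 CPM in dSERT16. Both were scattered across samples with wide overlap between the genotypes.

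The comparison of dSERT16 with dSERT4 asks how loss of serotonin transporter function alters transcription in KCs. No proteasome subunit was called. Of the 35 genes 32 passed the filter on low counts and were tested with edgeR's quasi-likelihood test, and 0 of the 32 reached a Benjamini-Hochberg adjusted p under 0.05, where 0.495% of all 8690 genes tested did (0.265% higher and 0.23% lower in dSERT16). The lowest adjusted p of a subunit was 0.457. An unadjusted p under 0.05 was reached by 2 of the 32 subunits, against 7.01% of all genes tested. In none of the 32 did every sample of one genotype lie above every sample of the other in CPM, against 4.87% of all genes tested. DESeq2, a second count test, also called 0 of the 35 subunits, with 3 at an unadjusted p under 0.05 and shares over all genes of 1.46% and 6.41%. Calls of subunits also stayed at 0 in edgeR with all 5 pairs, where 0.756% of all genes were called, with the collection date as a block (0.621% with 4 pairs and 1.08% with 5) and with the strand-specific columns summed (0.457%).

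The differences were small. The median log2 fold change of the 30 canonical subunits was 0.04, a fold of 1.03, against 0.00 over all genes tested. Point values were above 0 for 21 of the 30 subunits and for 50.03% of all genes. By class they were above 0 for 6 of 6 alpha subunits, 5 of 7 beta subunits, 2 of 5 ATPases and 8 of 12 Rpn subunits, and the class medians were 0.10, 0.05, -0.05 and 0.04 on the log2 scale. Members of 1 complex in the same samples are not independent of each other, and these counts were not tested.

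**Figure D3:**
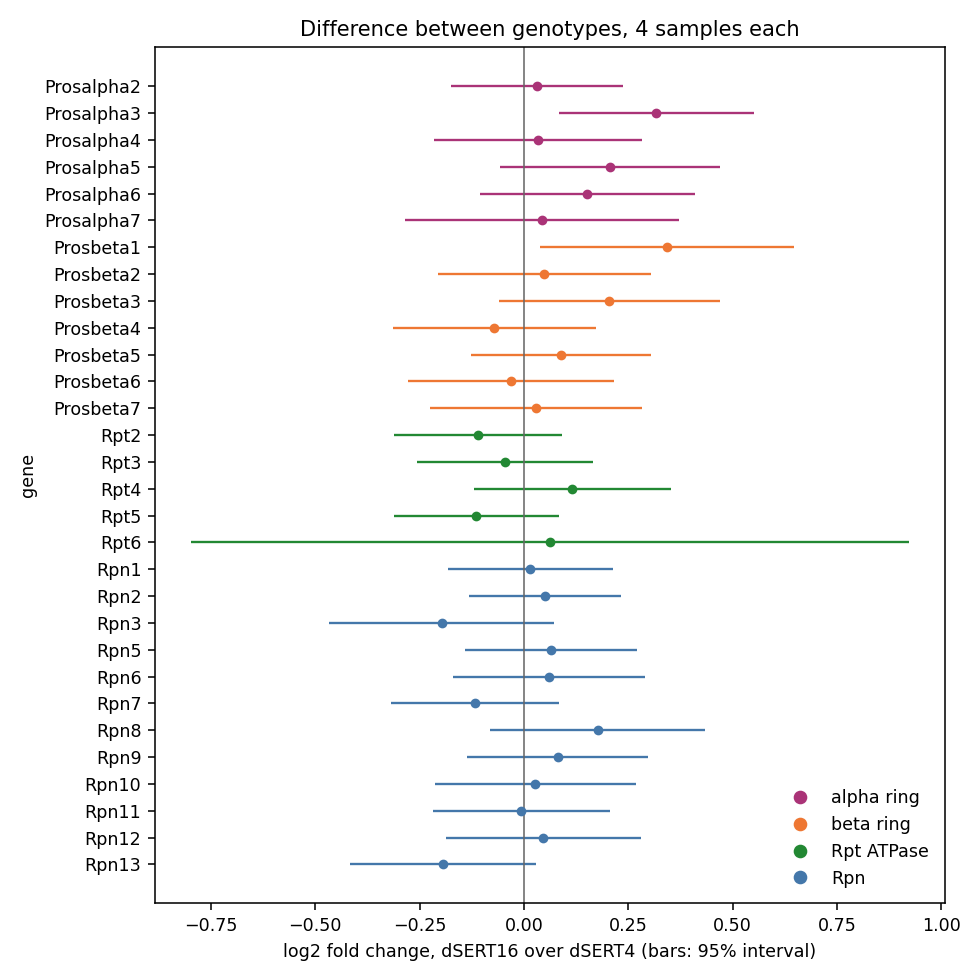
Log2 fold change of dSERT16 over dSERT4 (x axis) for the 30 canonical subunits, with the 95% interval of the edgeR fit on 4 samples of each genotype, colored by class. The interval lies above 0 for Prosalpha3 and Prosbeta1 alone before any adjustment, and Rpt6, with few unstranded reads, has the widest interval, from -0.80 to 0.92.

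The data bound the size of a change for most subunits. The unadjusted 95% interval lay within 1.5-fold in either direction for 28 of the 29 canonical subunits other than Rpt6, the exception being Prosbeta1. The median standard error of the log2 fold change was 0.11 for the canonical subunits and 0.18 for all genes tested. At the level of single samples the subunits varied little. The median standard deviation (SD) of log2 CPM within a genotype was 0.13 for the 29 subunits, from 0.05 for Rpt5 to 0.24 for Prosbeta1, against 0.17 for the 2450 genes tested in the same range of levels.

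Prosalpha3 and Prosbeta1 had the largest differences among the canonical subunits. Prosalpha3 (FBgn0261394, 2R, 20994900 to 20996118) is a gate subunit of the alpha ring. It had 96.4, 103, 91.1 and 86.4 CPM in dSERT4 replicates 2 to 5 and 112, 100, 132 and 126 CPM in dSERT16. Of the dSERT16 samples 3 lay above all dSERT4 samples, and replicate 3 lay within them. The log2 fold change was 0.32 ± 0.11 (SE, n = 4 and 4), with an interval of 0.08 to 0.55 and an adjusted p of 0.457 with edgeR.

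Prosbeta1 (FBgn0010590, 2R, 16013805 to 16014787) had 60.1, 55.0, 65.4 and 70.4 CPM in dSERT4 and 79.9, 58.8, 83.1 and 96.5 CPM in dSERT16. Again replicate 3 of dSERT16 lay within the dSERT4 samples and the other 3 above them. On each of the 5 collection dates, the left-out pair included, the dSERT16 sample was higher than the dSERT4 sample of that date. The log2 fold change was 0.34 ± 0.14 (SE, n = 4 and 4), with an interval of 0.04 to 0.65 and an adjusted p of 0.624 with edgeR. With the collection date as a block and all 5 pairs its adjusted p was 0.148, the lowest that edgeR gave for a subunit under any setting tried.

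Of the other core subunits, Prosalpha5 had 37.5, 36.4, 43.0 and 38.7 CPM in dSERT4 and 46.3, 40.6, 43.3 and 49.3 CPM in dSERT16, a log2 fold change of 0.21 ± 0.12 (SE). Prosbeta3 had 62.4, 55.4, 56.4 and 50.5 CPM in dSERT4 and 70.2, 52.3, 70.1 and 66.7 CPM in dSERT16, a log2 fold change of 0.20 ± 0.12. The genotypes overlapped for both genes, with adjusted p values of 0.826 for each in edgeR. Prosalpha6 had 55.9, 59.3, 78.1 and 71.5 CPM in dSERT4 and 70.9, 71.4, 73.2 and 78.5 CPM in dSERT16, so that its dSERT4 samples spread more widely than the difference of 0.15 ± 0.12 on the log2 scale.

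In the regulatory particle the 3 subunits of smallest unadjusted p were Rpn13, Rpn3 and Rpn8. Rpn13, a ubiquitin receptor, had 149, 139, 117 and 133 CPM in dSERT4 and 125, 120, 123 and 102 CPM in dSERT16. Its log2 fold change was -0.19 ± 0.10, and dSERT4 replicate 4 was the only dSERT4 sample within the range of the dSERT16 samples. Rpn3, a lid scaffold subunit, had 104, 106, 114 and 122 CPM in dSERT4 and 77.6, 107, 117 and 88.1 CPM in dSERT16, with replicates 2 and 5 of dSERT16 below all dSERT4 samples and a log2 fold change of -0.20 ± 0.13. Neither was called, with adjusted p values of 0.799 and 0.835 in edgeR.

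Rpn8 (FBgn0002787, 2R, 24400028 to 24404527) is the nearest of these genes to the mutated locus, with 67 bases between its end and the 3′ end of SerT (24404595 to 24411074, reverse strand). The dSERT16 deletion is at the other, 5′ end of SerT. Its values were 78.3, 84.9, 87.8 and 78.2 CPM in dSERT4 and 98.1, 72.7, 95.01 and 107 CPM in dSERT16. Replicate 3 of dSERT16 was below every dSERT4 sample and the other 3 were above. The log2 fold change was 0.18 ± 0.12, with an interval of -0.08 to 0.43 and an adjusted p of 0.850 with edgeR, and it was 0.10 when the strand-specific columns were added up. The effects of the deletion on DNA around the locus and of the loss of the transporter cannot be told apart in this design.

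**Figure D4:**
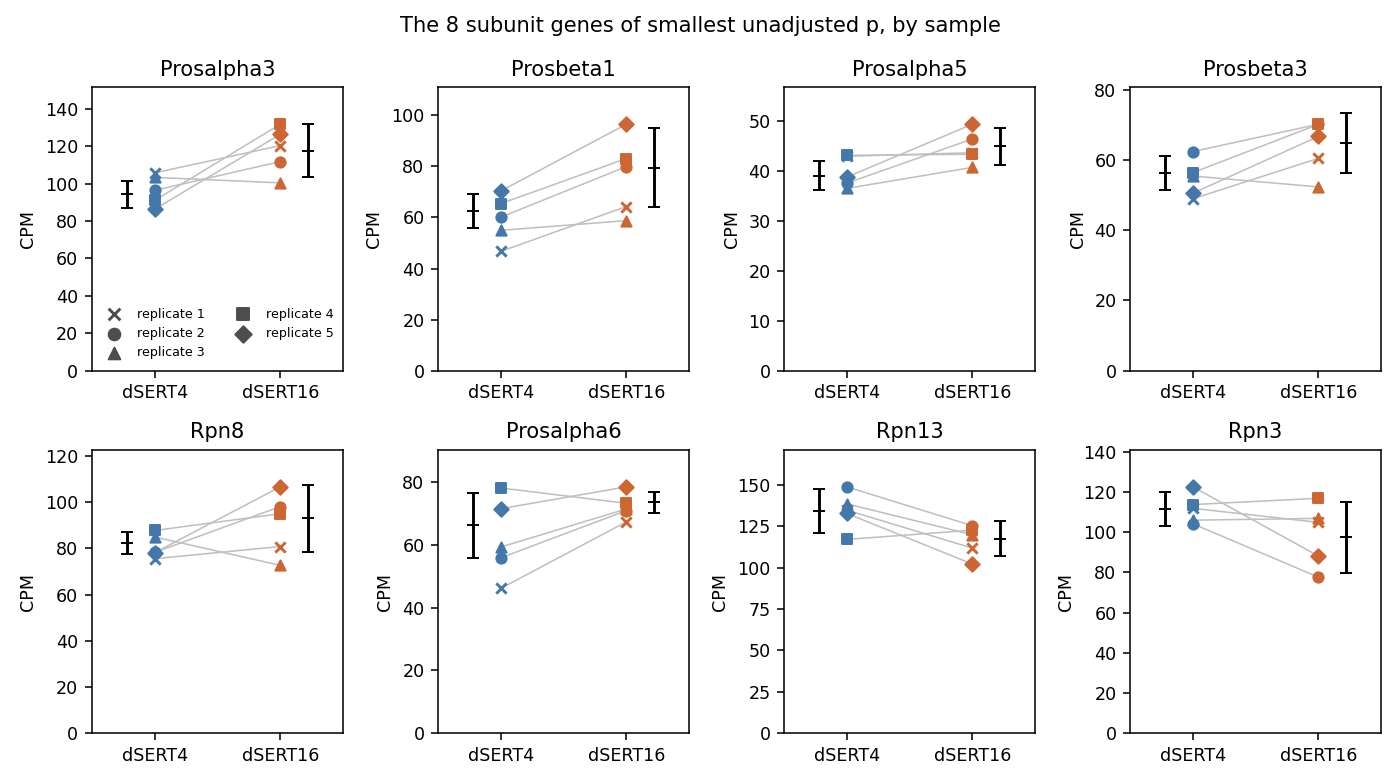
CPM in each of the 10 samples for the 8 subunit genes of smallest unadjusted p, with lines joining the samples of 1 collection date, and bars for the mean ± SD of replicates 2 to 5. The dSERT16 sample of replicate 3 (triangle) is the lowest of replicates 2 to 5 of dSERT16 for Prosalpha3, Prosbeta1, Prosalpha5, Prosbeta3 and Rpn8, and the genotypes overlap in every panel.

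These low values of dSERT16 replicate 3 extended across the core particle. Among replicates 2 to 5 of dSERT16 it was the lowest sample for 12 of the 13 core subunits and for 18 of the 29 canonical subunits other than Rpt6. It was one of the deeper samples, with 52306088 reads on genes. Its glial markers summed to 1111 CPM and its KC markers to 15837 CPM, the lowest KC sum of the 4 dSERT16 samples. Without this sample 5 of 33 subunits tested had genotypes that did not overlap (Prosalpha3, Prosalpha5, Prosbeta1, Prosbeta3 and Rpn8, all higher in dSERT16), against 8.87% of all genes tested in that fit. An unadjusted p under 0.05 was then reached by 4 subunits, against 7.32% of all genes. The lowest adjusted p was 0.248, so that 0 were called. This sample was picked out here for its low values in these genes, so leaving it out raises their dSERT16 level by construction. All genes were not picked in this way, and their shares are no like comparison.

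The summed transcripts of the core particle showed the same low sample. The 13 core genes summed to 856, 865, 861 and 883 CPM in dSERT4 replicates 2 to 5 and to 952, 831, 983 and 999 CPM in dSERT16. Replicate 3 of dSERT16 was below all dSERT4 samples and the other 3 were above all of them. The means were 866 ± 11.6 and 941 ± 76.2 CPM (SD, n = 4), a ratio of 1.09. The rise was uneven across the 13 genes. It was largest for Prosalpha3, from a mean of 94.3 (dSERT4) to 117.6 CPM (dSERT16), and Prosbeta1, from 62.7 to 79.6 CPM. These genes also had the smallest unadjusted p of the core. Prosalpha2, Prosalpha4, Prosalpha7 and Prosbeta7 had log2 fold changes of only 0.03 to 0.04. Point values were above 0 for 11 of the 13 genes, and below 0 for Prosbeta4 (-0.07) and Prosbeta6 (-0.03). In the left-out pair the sums were 835 CPM in dSERT4 and 915 CPM in dSERT16.

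The sums of the regulatory particle overlapped between the genotypes. Its 17 genes summed to 2034, 1976, 1947 and 2010 CPM in dSERT4 and 1990, 1914, 2034 and 1987 CPM in dSERT16, with means of 1992 ± 38.3 and 1981 ± 49.7 CPM (SD, n = 4) and a ratio of 0.995. Rpt6 entered these sums with its unstranded reads alone, at 1.89 to 3.94 CPM in replicates 2 to 5. In the strand-specific sum, where the reads cannot be told from those of CG1801, it had 121 to 147 CPM. Rpt1 is missing from the regulatory sums and Prosalpha1 from the core sums. The ratio of the core sum to the regulatory sum was 0.421, 0.438, 0.442 and 0.439 in dSERT4 and 0.478, 0.434, 0.483 and 0.503 in dSERT16. CPM sums are not corrected for gene length, so this ratio does not compare the level of the core with that of the regulatory particle. Per length, the median was 242 TPM for the core genes and 253 TPM for the regulatory genes. All 30 canonical subunits together summed to 2858 ± 41.2 CPM in dSERT4 and 2922 ± 122 CPM in dSERT16, a ratio of 1.02. As scores over chosen genes these sums were not tested.

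**Figure D5:**
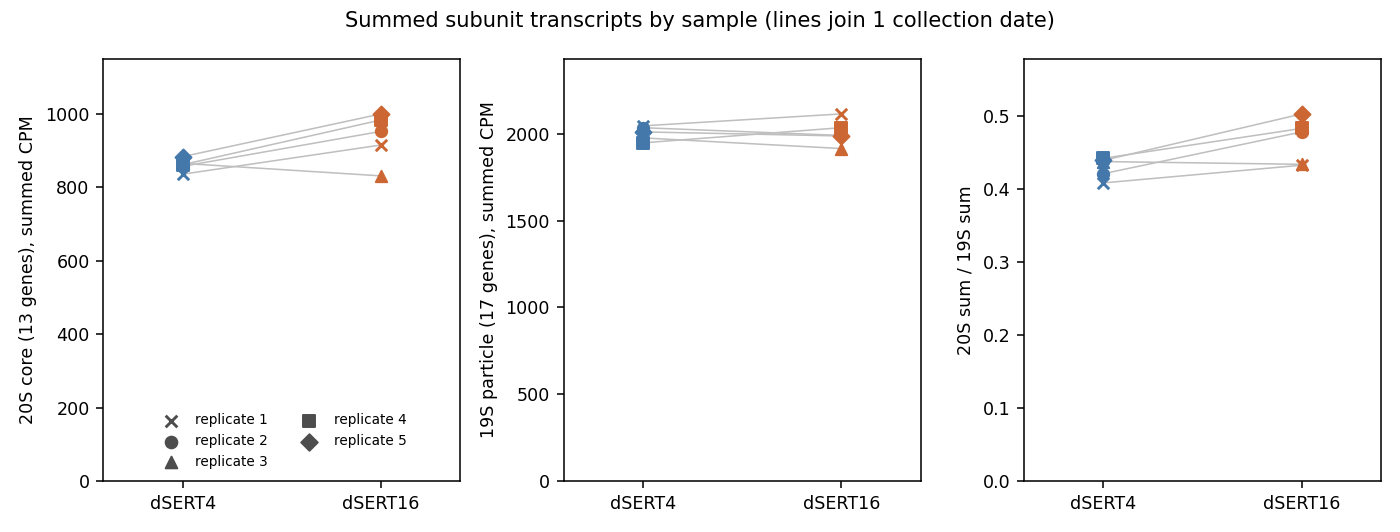
Summed CPM of the 13 core genes (left), of the 17 regulatory genes (middle) and the ratio of these sums (right) in each of the 10 samples, with lines joining the samples of 1 collection date. The sums are not corrected for gene length, and the regulatory sum holds only the unstranded reads of Rpt6. For the core, dSERT16 replicates 2, 4 and 5 lie at 952, 983 and 999 CPM above all dSERT4 samples, and dSERT16 replicate 3 lies at 831 CPM below replicates 1 to 5 of dSERT4.

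Within collection dates the direction was uneven. Of the 29 canonical subunits other than Rpt6, the dSERT16 sample was higher for 21 on the date of replicate 1, for 16, 9, 23 and 17 on those of replicates 2 to 5. For the 13 core genes it was higher for 10, 10, 4, 11 and 9 on the 5 dates. Only Prosalpha5, Prosbeta1 and Rpn9, a lid subunit, were higher in dSERT16 on all 5 dates, and Rpn7 was lower on all 5; among all genes tested 6.26% were higher and 5.90% lower on all 5. The log2 fold change of Rpn9 was 0.08 and that of Rpn7 -0.12, each smaller than 1.5 times its SE.

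The subunits also differed in how far they varied together. After the genotype means were subtracted, the median pairwise Pearson correlation over the 8 samples was 0.37 among the 13 core genes and 0.07 among the 16 regulatory genes other than Rpt6, against 0.01 among the 2450 genes of like level. These pairs share libraries and collection dates, and the values are a description. Replicate 3 of dSERT16, the lowest dSERT16 sample for 12 of the 13 core genes, enters every core pair. Its part in the core value was not tested.

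Of the canonical subunits other than Rpt6, 8 lie on chromosome arm 2R, which also holds SerT, and both subunits with an unadjusted p under 0.05 are among them. Over all genes tested such a p was reached by 10.8% on 2R and 6.07% on the other arms. The median size of the log2 fold change was 0.19 for these 8 and 0.05 for the 21 elsewhere. For the 29 together it was 0.07, against 0.09 for the 2450 genes of like level on all arms. Over all genes tested it was 0.16 for the 1704 on 2R and 0.14 for the 6933 on the other arms, and 1.115% and 0.317% of these genes were called. This split was looked at after the values of the subunits were seen.

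The wider pathway gave no call either. The lists held 23 genes, of which 22 were tested and 0 called, against 0.495% of all genes tested, with 3 at an unadjusted p under 0.05, against 7.01%. DESeq2 also called 0, against 1.46% of all genes. Of 9 tested regulators and assembly factors 5 had higher point values in dSERT16, with a median log2 fold change of 0.01; ntc was at 0 reads throughout. Of the 5 genes for ubiquitin and its activating enzyme 4 were higher, with a median of 0.01, and of the 8 shuttle factors and genes of the p97 segregase 7 were higher, with a median of 0.08. The lists were summed to similar levels in both genotypes, for instance 1057 to 1265 CPM in dSERT4 and 1139 to 1291 CPM in dSERT16 for the ubiquitin genes.

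The 3 pathway genes of smallest unadjusted p were Keap1, Ufd1-like and Npl4. Keap1 is the inhibitor of cnc, the fly member of the Nrf family that drives proteasome genes. It had 22.8, 24.5, 27.7 and 19.04 CPM in dSERT4 and 12.7, 18.2, 18.1 and 19.7 CPM in dSERT16, a log2 fold change of -0.46 ± 0.19 with an adjusted p of 0.610 in edgeR, and cnc itself differed by 0.02 ± 0.15. Ufd1-like and Npl4 encode the 2 partners of p97, the ATPase TER94 in the fly, which extracts ubiquitinated proteins for the proteasome. Ufd1-like had 80.0, 75.4, 77.8 and 75.4 CPM in dSERT4 and 88.7, 91.0, 86.8 and 93.1 CPM in dSERT16, without overlap, as in 4.87% of all genes tested, and a log2 fold change of 0.22 ± 0.09 with an adjusted p of 0.632. In the left-out pair, however, dSERT16 had 77.4 CPM and dSERT4 80.2 CPM. Npl4 had 66.6, 53.5, 69.2 and 58.1 CPM in dSERT4 and 76.5, 78.6, 66.6 and 75.4 CPM in dSERT16, a log2 fold change of 0.26 ± 0.11 with an adjusted p of 0.639 in edgeR.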

How the data were processed

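Bulk SMART-seq libraries of sorted KCs were examined in 10 samples. Alignment was by the authors with STAR to BDGP6 (dm6), and they deposited per-gene counts of uniquely mapped reads, as whole numbers for unstranded and for both strand-specific columns; the annotation release is not given in the sources used here. The authors' deposited table gives TPM for replicates 2 to 5. It also holds log2 fold changes with their p-values, made by the authors with DESeq2, which were not used. Reads in several genes (8.84% to 9.85% per sample) and other rows without a gene stayed out of library sizes.

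Unstranded counts of replicates 2 to 5 were filtered (filterByExpr, minimum count 10, minimum total 15), normalized by TMM and tested with edgeR 4.0.16 in R 4.3.3 (glmQLFit, robust), with Benjamini-Hochberg adjustment over all genes and calls at an adjusted p under 0.05. Intervals are 95% intervals without adjustment. SE is the log2 fold change divided by the root of F. CPM per sample were TMM-normalized over the 10 samples, and 0.1 was added before log2 for differences within dates and SDs. Separate cultures of flies are not stated, so p-values measure the spread between these pools. DESeq2 1.42.0 and other settings were alternatives, and the scripts were tested on simulated data. Tables and figures used Python 3.11.15. Positions come from a BDGP6 annotation.

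The members and lists were chosen with earlier results of these data known. Per-sample values are given for subunits called, the 8 of smallest unadjusted p, the highest and lowest TPM of each canonical class, and paralogs that passed the filter, and from the pathway lists for the 3 genes of smallest p. Plaa was matched to Plap by its synonym, and Trh was not matched. The collection dates in the labels pair the samples. Deviations from genotype means correlated at 0.217, 0.104, 0.121, 0.0956 and 0.0546 between samples of the same date (replicates 1 to 5), and 9 of 10 samples correlated best with their own date. Promoter and protein sequences were not used here.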

Additional observations from a re-analysis of the deposited data

Results flagged for a closer look

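In groups of 4 samples, a gap test (Dixon's) was applied to 68 groups, 2 for each of the 32 tested subunits, the summed level and the core to regulatory ratio. It marked 2 groups, and chance marks about 1 in 20. Prosalpha2 in dSERT4 replicate 2 stood at 86.6 CPM, below the other dSERT4 samples at 96.7 to 98.3 CPM, with a gap of 0.869 of the range. Rpt2 in dSERT4 replicate 4 stood at 145 CPM, above the 129.2 to 129.96 CPM of the others, with a gap of 0.95 of the range. Neither gene was called between the genotypes.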

How the results depend on the processing

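No subunit and no pathway gene was called under any alternative, including an adjusted p under 0.1 for the subunits. The 43 genes called in all became 77 without a filter on low counts, 66 with all 5 pairs, 148 with DESeq2 and 18 to 40 when each sample was left out in turn. With the collection date as a replicate block, the paired analysis called 54 genes with 4 pairs and 94 with 5 pairs, and it changed no call of a subunit. The cause of these shifts was not tested. The median log2 fold change of the canonical subunits, 0.04, ranged from 0.03 to 0.07 with each sample left out. The ratio of their summed levels, 1.02, ranged from 1.011 to 1.043. Subunits without overlap between genotypes, 0 in the main comparison, numbered 1 with DESeq2 size factors, 2 without a filter on low counts, 1 with at least 10 reads in every sample, 1 with the strand-specific columns summed, and 0 to 5 with each sample left out, with 5 without dSERT16 replicate 3. Rpt5, lower in dSERT16, was the subunit with DESeq2 size factors and with at least 10 reads, and its TPM values did not overlap either. With another sample left out, Rpt5, Rpn7, Rpn13 and Rpt2 (lower in dSERT16) and Prosalpha3, Prosalpha5, Prosbeta5 and Rpn9 (higher) did not overlap in 1 setting each. The ratio of highest to lowest level, 5.56 in TPM, was 2.93 in CPM per kilobase, which by construction uses another gene length.

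The direction turned under at least 1 alternative for 12 of the 32 tested subunits, each with a difference smaller than its SE. Those not given by sample were Prosalpha2, Prosalpha7, Prosbeta6, Prosbeta7, Rpn1, Rpn6, Rpn10 and Rpn11. Rpt3, at -0.05, was 0.027 with all 5 pairs and 0.023 with the date block on 5 pairs, and ranged from -0.102 to 0.0076 with each sample left out. Rpt6, at 0.06, was -0.012 with the block on 5 pairs and ranged from -0.091 to 0.18. Prosalpha4T2, at -0.79, was 0.34 with the block on 5 pairs and ranged from -1.55 to 0.095. Prosbeta2, at 0.05, ranged from -0.0092 to 0.12. For the 19 genes given by sample or named for their level or p, 312 of 321 values under alternatives kept their direction and side of the threshold. The promoter motif search was not run. Low counts limit the paralogs and, without strand, Rpt6, whose SE was 0.40 against a median of 0.11 for the canonical subunits.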

Other observations

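Rpt3R, a paralog of the ATPase Rpt3, did not pass the filter on low counts and was chosen for mention after its values were seen. Its deposited TPM values were 0.537, 0.982, 2.96 and 0.91 in dSERT4 replicates 2 to 5 and 0.0881, 0.23, 0 and 0 in dSERT16. Its reads are few, and the strand-specific columns together held 2 times the unstranded total, so that about as many of its reads were shared with a gene on the other strand as were counted for it. In DESeq2 its log2 fold change was -3.79, with an unadjusted p of 0.0023 and an adjusted p of 0.109. In edgeR with the strand-specific columns summed it was -1.93, with an unadjusted p of 0.023 and an adjusted p of 0.582.

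Prosalpha4T1, 1 of the 13 proteasome genes outside the rule, had 0 unstranded reads in all 10 samples and 40 to 277 reads per sample in the sum of the strand-specific columns. As for Rpt6, such reads lie in an overlap with a gene on the other strand, and which gene they came from cannot be told.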
